A study of Mus musculus with 6 samples.

Results

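The genes that build and break down glycogen were followed in inguinal white fat of obese mice given recombinant Adissp. The 9 genes were chosen by symbol in the deposited count table: the glycogen synthases Gys1 and Gys2, the branching enzyme Gbe1, the UDP-glucose enzyme Ugp2, the phosphorylases Pygb, Pygl and Pygm, and the phosphatase targeting subunits Ppp1r3b and Ppp1r3c. All 9 symbols occurred once among the 57180 genes listed, and all 9 were among the 17320 genes with enough counts to be tested. The tissue came from wild-type mice on a high-fat diet. The ADISSP group (3 libraries) had received the recombinant protein at 68 nmol/kg once a day for 33 days. The Control group (3 libraries) shared the diet, the genotype and batch 1, and the labels do not say what these mice were given, nor the age or sex of any mouse. Adissp is a protein secreted by fat cells. Libraries are described as biological triplicates, and the labels do not say whether each came from 1 mouse.

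Glycogen is a branched store of glucose. A cell makes UDP-glucose, glycogen synthase adds the glucose to growing chains, and the branching enzyme starts new branches. Phosphorylase cuts glucose off again, in isoforms named for muscle, liver and brain. Targeting subunits hold protein phosphatase 1 on the glycogen particle, where it switches synthase on and phosphorylase off. Fat cells hold little glycogen compared with liver and muscle, and brown fat can build it up.

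Total counts ran from 10357930 to 15658428 in ADISSP and from 13966685 to 15400072 in Control. Fat cell markers were present throughout, with a summed level of 17178 to 19373 CPM in ADISSP and 12384 to 16714.5 CPM in Control over 8 genes. CPM are counts per 1000000 after TMM scaling, which sets libraries level on the bulk of their genes. Control 3 stood apart from Control 1 and 2 in most skeletal muscle markers: the summed level of 18 muscle markers was 4688, 5333 and 5363 CPM in ADISSP 1, 2 and 3, against 50.7, 69.1 and 12440.2 CPM in Control 1, 2 and 3. None of the 18 was at 0 in every library, and Myh4, Atp2a1 and Acta1 were the most abundant. Another 4 of the 18, named after their values were seen, did not share this order and were the 4 called higher in ADISSP: Myh1 (101 to 236 CPM in ADISSP, 3.23, 3.46 and 11.5 CPM in Control 1, 2 and 3), Myh2 (16.5 to 95.1 CPM in ADISSP, 1.08, 0.879 and 1.43 CPM in Control), Myh7 (17.0 to 33.3 CPM in ADISSP, 0.283, 0.934 and 0.886 CPM in Control) and Mb (17.5 to 27.9 CPM in ADISSP, 0.396, 0.550 and 2.80 CPM in Control). The summed level in Control 3 of 8 B and T cell markers was apart too, with 10.5 to 14.6 CPM in ADISSP, against 320, 402 and 82.9 CPM in Control 1, 2 and 3. Each of the 9 genes is therefore also compared with Control 3 alone. Other cell types differed too: 7 brown or beige fat markers, led by Ucp1, summed to 4137 to 4890 CPM in ADISSP and 116 to 200 CPM in Control, and 6 macrophage markers to 269 to 378 CPM in ADISSP and 636 to 753 CPM in Control. The part of any of these cell types in the results was not tested. In such mixed tissue, fewer cells of a type and less RNA per cell cannot be told apart.

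Most of the glycogen genes were higher in ADISSP. Among those of breakdown, Pygl rose steeply, Pygb rose little and Pygm had no call. The small rises of Pygb and, on the side of synthesis, Ugp2 lost their call when most single libraries were left out. In edgeR's quasi-likelihood fit, with p-values adjusted over all genes by Benjamini-Hochberg, 7 of the 9 rose at an adjusted p under 0.05 and 0 fell. Over all genes tested, 35.0% were called: 18.5% of all genes were higher and 16.5% lower. The median log2 fold change, ADISSP over Control, was 0.94 for the 9 and -0.01 for all genes. The 2 without a call were Pygm, the muscle phosphorylase, and Ppp1r3c. In 8 of the 9 every ADISSP library lay above every Control library, as in 26.0% of all genes (49.8% were separate in either direction), and Pygm was the exception. Against Control 3 alone 5 were higher and 1 was lower past the threshold, where 17.4% of 18326 genes were called, 10.3% higher and 7.12% lower. Both comparisons share the ADISSP libraries and Control 3, and the second takes its spread from the ADISSP libraries alone, so it holds no measure of how control libraries differ. The scaling matters for small changes: on log2(TPM + 1) the median of all genes was -0.50 and limma called 1276 higher and 9523 lower, against 3197 and 2861 here, and on library totals the median was -0.36, with 1759 higher and 6577 lower. Changes on those scales are to be read against these medians.

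**Figure D1:**
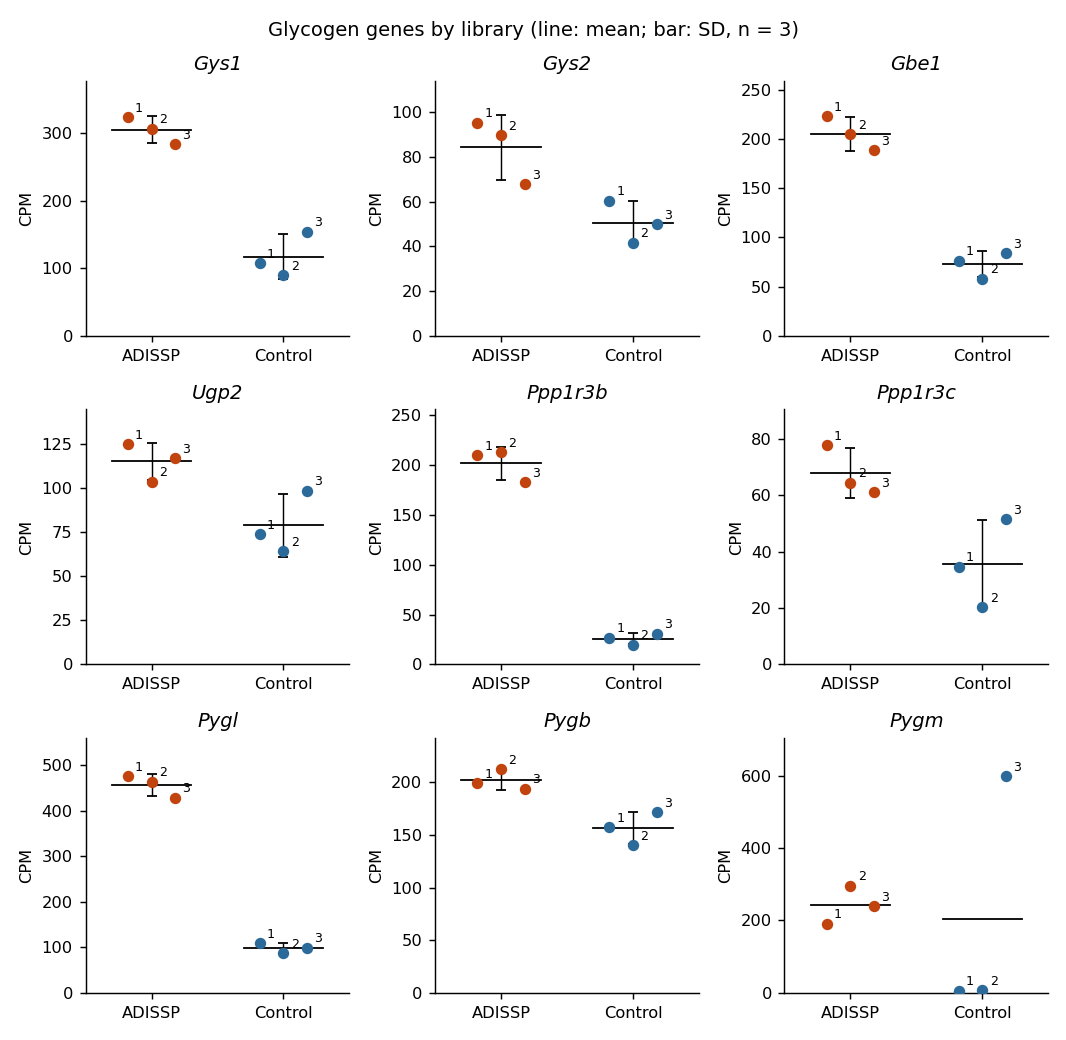
CPM (vertical axis, from 0) of the 9 glycogen genes in each library, with ADISSP and Control side by side; numbers name the replicate, lines are group means and bars the SD (n = 3, no bar for Pygm). In Ppp1r3b and Pygl the groups stand far apart, while for Pygm Control 3 lies at 599 CPM, above every ADISSP library, and Control 1 and 2 lie near 0.

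The steepest rise was in Ppp1r3b, the targeting subunit best known from liver, where it brings the phosphatase to glycogen. Ppp1r3b (ENSMUSG00000046794, GRCm39 chromosome 8, 35842893 to 35855293, plus strand) stood at 209.8, 213 and 182 CPM in ADISSP 1, 2 and 3, against 27.0, 20.0 and 30.8 CPM in Control 1, 2 and 3. Every ADISSP library was several times above the highest control, and Control 3 was close to the other two. The log2 fold change was 2.96 (SE 0.16, adjusted p = 1.09e-05), and 2.71 (SE 0.15) against Control 3 alone. Ppp1r3c encodes PTG, a related subunit that also binds glycogen synthase and phosphorylase. Ppp1r3c (ENSMUSG00000067279, chromosome 19, 36709131 to 36714053, minus strand) had 77.8, 64.4 and 61.0 CPM in ADISSP, against 34.6, 20.3 and 51.6 CPM in Control. The groups did not overlap, but the controls spread widely and the difference of 0.94 (SE 0.34) missed the threshold (adjusted p = 0.0812). It passed without Control 3 (1.30, adjusted p = 0.00554), without Control 2 (0.65, adjusted p = 0.0456) and in DESeq2 (0.92, adjusted p = 0.00562), and it was 0.39 and not past the threshold against Control 3 alone.

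On the side of synthesis, the muscle-type synthase Gys1, the branching enzyme Gbe1, the liver-type synthase Gys2 and Ugp2 all rose, and differences in size between them were not tested. Gys1, the synthase most tissues use (ENSMUSG00000003865, chromosome 7, 45084268 to 45106043, plus strand), had 323, 306 and 284 CPM in ADISSP 1, 2 and 3, against 108, 89.4 and 154 CPM in Control 1, 2 and 3. Control 3 was the highest control and still well below ADISSP. Gys1 rose by 1.38 on the log2 scale (SE 0.19, adjusted p = 0.00117). Against Control 3 alone it rose by 0.98 (SE 0.13, adjusted p = 2.0e-04). The span of Gys1 overlaps that of Ruvbl2 on the other strand, a gene with 14.2% as many counts, and the strand setting of the counting is not given. Gbe1, which makes the branch points (ENSMUSG00000022707, chromosome 16, 70110837 to 70366604, plus strand), had 223, 205 and 189 CPM in ADISSP, against 76.5, 58.1 and 83.7 CPM in Control. It rose by 1.5 (SE 0.14, adjusted p = 1.1e-04), and by 1.29 (SE 0.14) against Control 3 alone.

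Gys2, the synthase of liver that mouse fat also uses (ENSMUSG00000030244, chromosome 6, 142368339 to 142418835, minus strand), had 95.2, 89.7 and 67.7 CPM in ADISSP 1, 2 and 3, against 60.4, 41.6 and 49.9 CPM in Control 1, 2 and 3. The lowest ADISSP library was just above the highest control. Its rise was 0.73 (SE 0.17, adjusted p = 0.0122), with 0.75 (SE 0.18, adjusted p = 0.020) against Control 3 alone, a call lost without ADISSP 2 (adjusted p = 0.0688). On log2(TPM + 1) it was 0.15 and did not pass, and on library totals it was 0.38 and did not pass either. Ugp2, which joins glucose-1-phosphate to UTP (ENSMUSG00000001891, chromosome 11, 21271138 to 21321201, minus strand), had 125, 104 and 117 CPM in ADISSP, against 73.8, 64.0 and 98.3 CPM in Control. The rise of 0.55 (SE 0.16, adjusted p = 0.0271) was called with all 6 libraries but not without ADISSP 1, ADISSP 3, Control 1 or Control 2 (adjusted p up to 0.0929). It was 0.23 and without a call against Control 3 alone, and -0.01 on log2(TPM + 1).

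**Figure D2:**
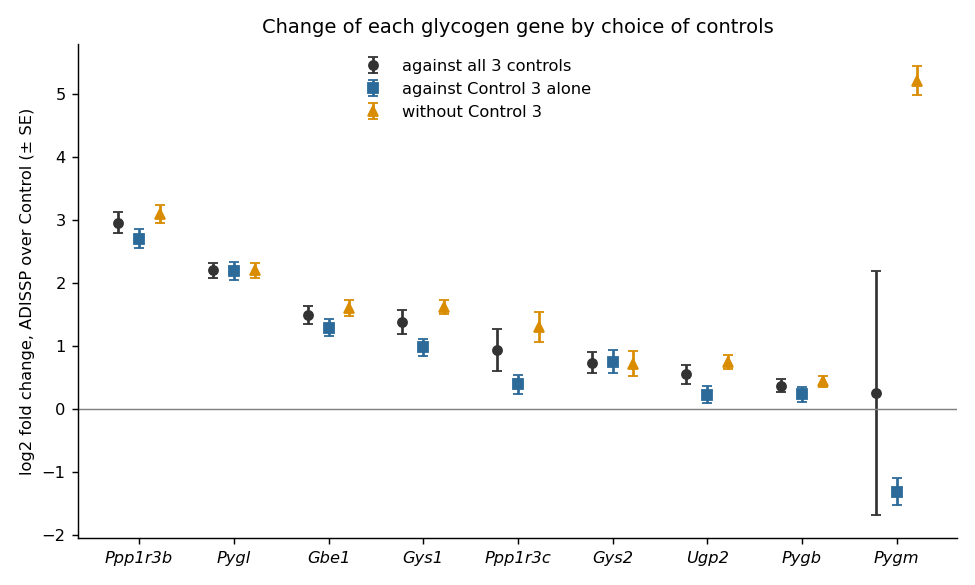
Log2 fold change of ADISSP over Control (vertical axis, bars ± SE) for each glycogen gene with all 3 controls, with Control 3 alone and without Control 3. Pygl and Gys2 hardly move between the 3 choices, and Pygm runs from -1.31 against Control 3 alone to 5.21 without it.

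Among the phosphorylases, which cut glucose-1-phosphate off the chains, the liver isoform rose steeply and the brain isoform little. The muscle isoform, like the summed muscle markers, was lowest in Control 1 and 2, intermediate in ADISSP and highest in Control 3. Myh1, Myh2, Myh7 and Mb did not share this order. Pygl (ENSMUSG00000021069, chromosome 12, 70237585 to 70278262, minus strand) had 475, 463 and 428 CPM in ADISSP 1, 2 and 3, against 109.6, 87.7 and 98.9 CPM in Control 1, 2 and 3. The 3 controls lay close together, Control 3 between the other two. Pygl rose by 2.21 (SE 0.12, adjusted p = 9.48e-06), and by 2.20 (SE 0.14, adjusted p = 6.1e-07) against Control 3 alone. The summed level of 6 hepatocyte markers went the other way, at 12.2 to 21.2 CPM in ADISSP and 40.5 to 101 CPM in Control. Alb was the largest part, at 9.04 to 14.9 CPM in ADISSP and 32.7 to 77.6 CPM in Control. Of the 5 tested, 4 were lower and 0 higher, and Serpina1a overlapped between groups without a call. Whether hepatocyte RNA adds to Pygl was not tested. Pygb (ENSMUSG00000033059, chromosome 2, 150628655 to 150673678, plus strand) had 199, 213 and 194 CPM in ADISSP, against 158, 141 and 172 CPM in Control. Its rise of 0.37 (SE 0.11, adjusted p = 0.0262) no longer passed once an ADISSP library, Control 1 or Control 2 was left out (adjusted p 0.0551 to 0.0930), and was 0.23 without a call against Control 3 alone. On log2(TPM + 1) Pygb was lower in ADISSP by a change of -0.21 (limma, adjusted p = 0.0399), where the median of all genes was -0.50.

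Pygm (ENSMUSG00000032648, chromosome 19, 6434429 to 6448489, plus strand) had 191, 296 and 239 CPM in ADISSP 1, 2 and 3, against 5.72, 7.25 and 599 CPM in Control 1, 2 and 3. The ADISSP libraries lay between the low pair of controls and Control 3, as they did for the summed muscle markers. With all controls the log2 fold change was 0.25 (SE 1.94, adjusted p = 0.936). Against Control 3 alone it was -1.31 (SE 0.21, adjusted p = 0.00558), a call lost without ADISSP 3 (adjusted p = 0.0748). Without Control 3 it was 5.21 (SE 0.23, adjusted p = 6.1e-07). The direction for Pygm thus depends on which controls are used. As a share of the summed muscle marker CPM, Pygm was 4.06%, 5.55% and 4.45% in ADISSP, against 11.3%, 10.5% and 4.81% in Control. Control 3 fell within the ADISSP range on this ratio, while Control 1 and 2, with few muscle counts, were above it.

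**Figure D3:**
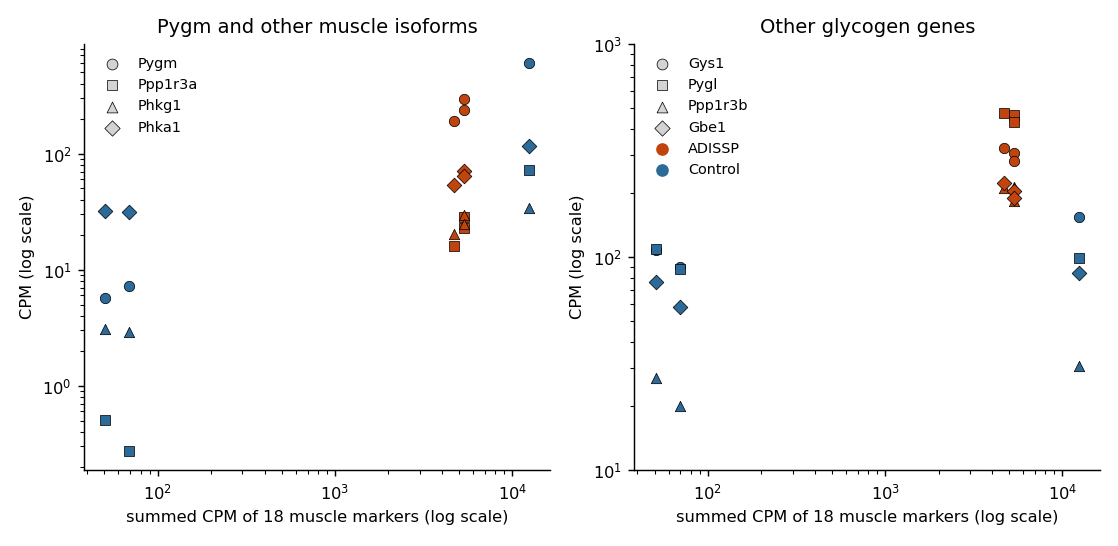
CPM of single genes (vertical, log scale) against the summed CPM of 18 skeletal muscle markers (horizontal, log scale) in the 6 libraries, coloured by group. Pygm, Ppp1r3a, Phkg1 and Phka1 are lowest in Control 1 and 2, intermediate in ADISSP and highest in Control 3; Pygl, Ppp1r3b, Gys1 and Gbe1 are highest in ADISSP, with Control 3 at 154 CPM for Gys1 and between Control 1 and 2 for Pygl.

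Levels of different genes can be set side by side on the deposited TPM, which are counts per gene length scaled to the library. Among Control libraries Pygb was the most abundant of the 9 by median, at 130.2 to 141 TPM, above Ugp2 (92.9 to 127 TPM) and Gys1 (83.2 to 128 TPM), whose ranges overlapped. Gys2 followed at 69.6 to 97.2 TPM, a range that overlapped those of Ugp2, Gys1 and Ppp1r3c. Gbe1, Pygl and Ppp1r3c came next with overlapping ranges, and Ppp1r3b was low at 14.3 to 19.6 TPM. Pygm spanned 7.60 to 738 TPM there. In ADISSP libraries Pygm (168 to 248 TPM), Pygl (181 to 196 TPM) and Gys1 (173 to 192 TPM) led with overlapping ranges, above Pygb at 118 to 119 TPM. Ppp1r3b stood at 86.5 to 96.0 TPM in ADISSP, within the range of Gys2 (75.1 to 102 TPM). The order thus differed between groups in that Pygl lay above Pygb in every ADISSP library and below it in every Control library.

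Shares within a library do not depend on how libraries are scaled. Counting the liver and brain isoforms alone, a choice made after seeing Pygm, Pygl made up 62.4%, 60.3% and 60.6% of their summed TPM in ADISSP 1, 2 and 3. In Control 1, 2 and 3 it made up 32.6%, 30.3% and 28.7%. The share averaged 61.1% ± 1.15 in ADISSP and 30.5% ± 2.0 in Control (SD, n = 3 each), and an exact two-sided permutation test gave p = 0.1, the smallest that 3 against 3 allows. Control 3 did not stand apart in this share. With Pygm included, the Pygl share was 40.6%, 33.0% and 35.1% in ADISSP, against 31.5%, 28.8% and 6.08% in Control (exact permutation p = 0.1, 0.25 adjusted over 5 measures). The Pygm share was 34.9%, 45.2% and 42.0% in ADISSP, against 3.52%, 5.10% and 78.8% in Control (exact permutation p = 0.8, 1 adjusted), and that of Pygb was 24.5%, 21.7% and 22.9%, against 65.0%, 66.1% and 15.1% (exact permutation p = 0.4, 0.667 adjusted).

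Gys2 made up 34.7%, 34.5% and 30.1% of the summed synthase TPM in ADISSP 1, 2 and 3, against 50.2%, 45.6% and 36.8% in Control 1, 2 and 3. The groups did not overlap (exact permutation p = 0.1, 0.25 adjusted), and Control 3 was the control nearest to ADISSP. The log2 ratio of synthase to phosphorylase TPM was -0.71, -1.06 and -1.06 in ADISSP, against -0.16, -0.37 and -2.21 in Control (exact permutation p = 1, adjusted 1). Leaving out Pygm, it was -0.09, -0.19 and -0.27 in ADISSP, against -0.11, -0.29 and 0.03 in Control (exact permutation p = 0.7). The groups overlapped in both forms of the ratio.

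**Figure D4:**
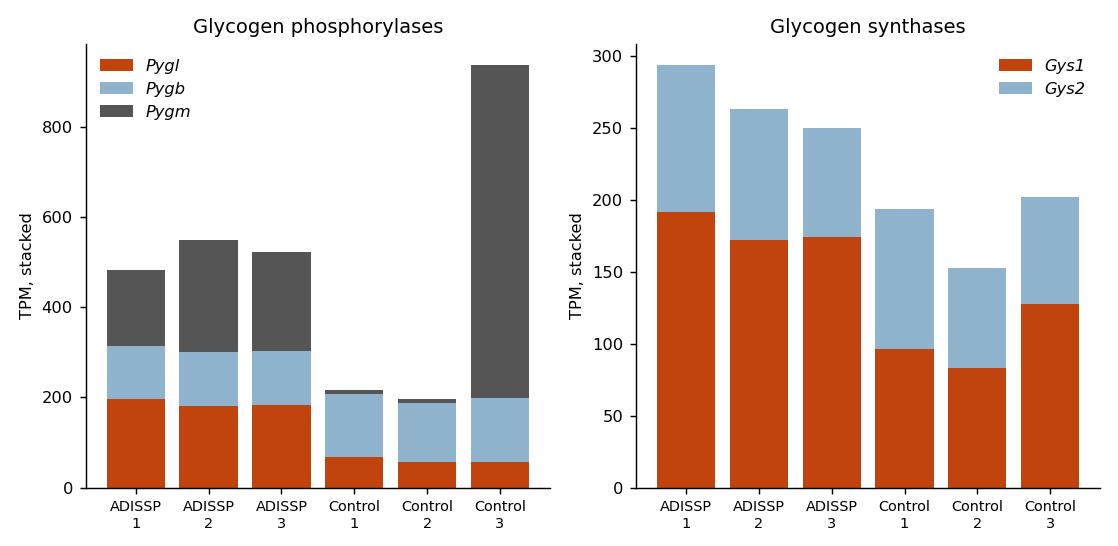
Stacked TPM of the phosphorylase isoforms (left) and synthase isoforms (right) in each library, ADISSP then Control. The Pygl part is 181 to 196 TPM in ADISSP and 56.6 to 68.0 TPM in Control, while the Pygm part is small in Control 1 and 2 and 738 TPM in Control 3.

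Similar isoforms can share reads. In GENCODE M21 transcripts the longest open reading frames of Gys1 and Gys2 were 69.3% identical over 2108 aligned bases, and no word of 50 bases was shared. For Pygl the identity was 75.6% with Pygb and 75.4% with Pygm, again with 0 shared words of 50 bases and a longest common run of 29 bases. Pygb and Pygm, 77.3% identical, shared 13 such words within 1 run of 62 bases, so that a short read from there could belong to either. Ppp1r3b and Ppp1r3c were 60.7% identical, with a longest common run of 16 bases.

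The promoters of 4 of the members that the RefSeq table holds are shown. They are those of the liver phosphorylase that rose, the synthase Gys1, the muscle phosphorylase, and the targeting subunit with the E-box CACGTG. Each runs 5′ to 3′ from 250 bases before the start site to 50 after it, on GRCm38.p6 (the count table is on GRCm39), in lower case with motif matches in capitals. The 4 windows are chr12:70227634-70227933 (minus strand, Pygl), chr7:45434589-45434888 (plus, Gys1), chr19:6384158-6384457 (plus, Pygm) and chr19:36736555-36736854 (minus, Ppp1r3c).
Pygl: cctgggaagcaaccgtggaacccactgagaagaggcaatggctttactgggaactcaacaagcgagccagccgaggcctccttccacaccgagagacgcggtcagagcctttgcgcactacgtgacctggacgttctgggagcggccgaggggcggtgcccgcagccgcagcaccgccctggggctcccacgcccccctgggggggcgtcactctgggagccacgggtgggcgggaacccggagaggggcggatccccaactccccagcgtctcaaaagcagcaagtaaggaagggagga
Gys1: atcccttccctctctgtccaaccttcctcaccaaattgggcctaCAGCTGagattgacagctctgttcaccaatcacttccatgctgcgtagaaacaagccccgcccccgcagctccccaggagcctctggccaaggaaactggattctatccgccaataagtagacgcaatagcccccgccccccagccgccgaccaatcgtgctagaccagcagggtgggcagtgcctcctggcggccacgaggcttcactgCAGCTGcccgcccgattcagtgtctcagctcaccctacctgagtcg
Pygm: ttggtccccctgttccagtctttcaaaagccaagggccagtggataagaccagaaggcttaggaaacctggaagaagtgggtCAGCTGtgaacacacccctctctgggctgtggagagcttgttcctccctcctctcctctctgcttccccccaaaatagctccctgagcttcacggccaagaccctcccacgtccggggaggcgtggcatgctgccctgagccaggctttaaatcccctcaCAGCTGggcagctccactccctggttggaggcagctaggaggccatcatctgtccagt
Ppp1r3c: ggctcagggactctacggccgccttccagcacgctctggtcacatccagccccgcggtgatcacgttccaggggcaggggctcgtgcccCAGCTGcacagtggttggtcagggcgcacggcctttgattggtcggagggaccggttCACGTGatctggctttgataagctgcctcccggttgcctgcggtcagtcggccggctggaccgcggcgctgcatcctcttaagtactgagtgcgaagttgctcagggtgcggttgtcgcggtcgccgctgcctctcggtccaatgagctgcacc
Both strands of 8 windows for 7 members were searched: Gys1, Gbe1, Ugp2 (2 windows), Pygb, Pygl, Pygm and Ppp1r3c. The E-box CACGTG occurred in 1 of the 8, in Ppp1r3c at 104 bases before the start site, and in 7.15% of all 32851 windows in the table. An E-box that muscle factors of the MyoD family bind was added to the search after Pygm was seen to follow most muscle markers. Its letters, CAGCTG, occurred in 4 of the 8 and in 16.3% of all windows. The 8 windows held 54.3% to 76.0% G and C, against a median of 52.7% over all windows, and the part of this in the matches was not tested. Gys1 and Pygm held 2 matches each, Ppp1r3c and 1 of the Ugp2 windows 1 each, and those of Pygm began 168 and 8 bases before the start site. The cyclic AMP response element TGACGTCA occurred in 0 of the 8, and in 1.79% of all windows. The nuclear receptor half-site AAGGTCA was also found in 0 of the 8, against 4.72% of all windows in the table. The same held for the TATA box, searched as TATAAA, with 0 of the 8 and 13.6% of all windows. No motif searched overlaps another in these windows, and a match or its absence here says nothing of which factors act.

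The rest of the pathway moved less evenly. Of 31 further genes listed, 28 were tested, of which 9 rose and 1 fell, beside the 35.0% of all genes that were called, and the median log2 fold change was 0.38, against -0.01 for all genes. Without Control 3 the numbers were 19 higher and 2 lower, where 4305 and 4212 of all 18222 genes tested were. Without ADISSP 2 they were 5 and 0, where 2468 and 1849 of all 18177 genes tested were. Against Control 3 alone the median log2 fold change of the pathway genes was 0.08, against 0.01 for all genes. Hk2 and Hk1, which trap glucose as glucose-6-phosphate, rose by 1.39 (SE 0.21, adjusted p = 0.0020) and 1.07 (SE 0.12, adjusted p = 3.1e-04). Hk2 had 506, 500.0 and 439 CPM in ADISSP 1, 2 and 3, against 154, 145 and 252 CPM in Control 1, 2 and 3. Hk1 had 106, 105 and 101 CPM in ADISSP, against 49.9, 57.7 and 41.6 CPM in Control. Both groups were separate in each gene, and against Control 3 alone both passed, at 0.93 for Hk2 and 1.32 for Hk1. Pgm1, which turns glucose-6-phosphate into glucose-1-phosphate and back, rose by 0.71 (SE 0.22, adjusted p = 0.0405), which no longer passed once an ADISSP library, Control 1 or Control 2 was left out (adjusted p 0.0740 to 0.129), nor on library totals (0.38) or log2(TPM + 1) (0.18). Pgm2l1, which makes glucose-1,6-bisphosphate, fell by 0.46 (adjusted p = 0.0382), lost without ADISSP 1, ADISSP 2, Control 1 or Control 2 (adjusted p up to 0.127). Against Control 3 alone Pgm1 was 0.24 and Pgm2l1 -0.46.

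Among regulators, Gsk3a, a kinase that phosphorylates and slows glycogen synthase, rose. Gsk3a had 129, 133 and 108 CPM in ADISSP 1, 2 and 3, against 60.1, 60.0 and 73.5 CPM in Control 1, 2 and 3 (log2 fold change 0.94, SE 0.12, adjusted p = 6.0e-04), and it rose by 0.74 against Control 3 alone. Ppp1ca, a catalytic subunit of protein phosphatase 1, rose by 0.46 (SE 0.09, adjusted p = 0.00588), and the liver-type phosphorylase kinase subunit Phka2 by 0.41 (SE 0.10, adjusted p = 0.0146). On log2(TPM + 1) Ppp1ca was -0.12 and Phka2 -0.17, without a call, on library totals they were 0.11 and 0.06, also without a call, and Phka2 lost its call without ADISSP 2 (adjusted p = 0.0576). G6pc3, a widely expressed glucose-6-phosphatase subunit, rose by 0.87 (SE 0.11, adjusted p = 5.7e-04), with 40.3 to 46.8 CPM in ADISSP and 22.1 to 25.8 CPM in Control. Nhlrc1, which encodes malin, rose by 1.18 at 2.53 to 4.52 CPM in ADISSP and 1.36 to 1.65 CPM in Control (adjusted p = 0.0179). Stbd1, a protein that binds starch and glycogen, rose by 0.72 (adjusted p = 0.0458). Leaving out 1 library ended the call for Nhlrc1 without ADISSP 2, ADISSP 3, Control 1 or Control 2 (adjusted p up to 0.0726), and for Stbd1 without any 1 of the 6 (adjusted p up to 0.161). On library totals neither passed (adjusted p = 0.0563 for Nhlrc1 and 0.275 for Stbd1), nor on log2(TPM + 1), where Nhlrc1 was 0.45 and Stbd1 0.11, and Stbd1 missed the threshold in DESeq2 (adjusted p = 0.0503).

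Outside the 9, 3 muscle isoforms picked with their values in view followed the order of Pygm: lowest in Control 1 and 2, highest in Control 3. Ppp1r3a, the targeting subunit of muscle, had 15.8, 22.7 and 28.2 CPM in ADISSP 1, 2 and 3, against 0.509, 0.275 and 72.0 CPM in Control 1, 2 and 3. Phkg1, the catalytic subunit of muscle phosphorylase kinase, had 20.2, 29.3 and 24.6 CPM in ADISSP, against 3.06, 2.91 and 34.0 CPM in Control. Phka1, its muscle-type regulatory subunit, had 53.2, 71.1 and 64.4 CPM in ADISSP, against 31.8, 31.3 and 117 CPM in Control. With all controls these 3 were -0.11, 0.90 and 0.07 with adjusted p of 0.972, 0.590 and 0.943, by edgeR. Without Control 3 all 3 passed, at 5.80, 3.04 and 0.99. Against Control 3 alone they were -1.69, -0.47 and -0.90.

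Glycogenin (Gyg), the protein that starts a glycogen particle, and Gaa, the lysosomal enzyme that digests glycogen, did not pass. Gyg had 96.6, 75.2 and 83.6 CPM in ADISSP 1, 2 and 3, against 70.0, 61.8 and 83.0 CPM in Control 1, 2 and 3 (log2 fold change 0.25, SE 0.13, adjusted p = 0.176). Gaa was at 135, 141 and 148 CPM in ADISSP, against 90.9, 97.9 and 146 CPM in Control (0.34, SE 0.17, adjusted p = 0.159). In both genes Control 3 reached into the ADISSP range, and without Control 3 both passed (0.37 for Gyg and 0.58 for Gaa, adjusted p up to 0.0206). Of the 3 genes with too few counts to test, G6pc had 0 to 2 counts a library in ADISSP and 4 to 7 in Control, and Ppp1r3g had 2 to 13 in ADISSP and 0 to 2 in Control.

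**Figure D5:**
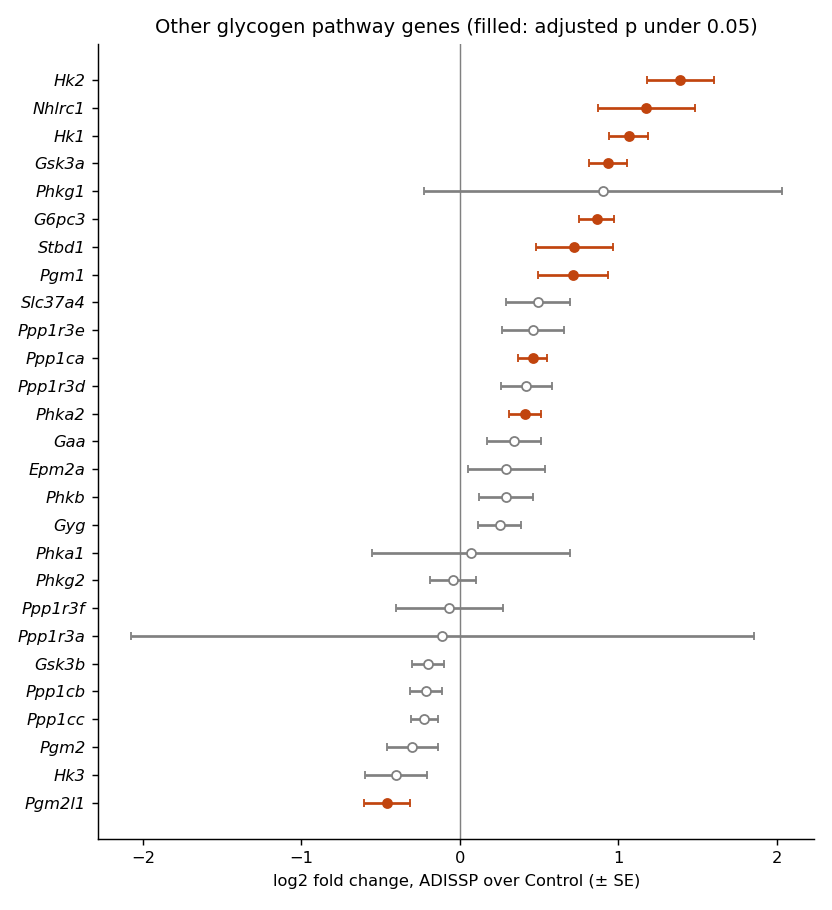
Log2 fold change of ADISSP over Control (horizontal axis, bars ± SE) for tested genes of the pathway outside the 9 (1 of the 28 is not drawn), filled where the adjusted p was under 0.05. Hk2 and Nhlrc1 are the highest called genes and Pgm2l1 is the 1 called lower; Ppp1r3a and Phkg1 have the widest errors.

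Genes whose log2 CPM ran most like each member over the 6 libraries are named as a description, with no p; the points share the same 2 groups and the same libraries. For Ppp1r3b they were Acadm and Swi5, both with a Pearson r of 1.00, and for Pygl Elovl3 (1.00) and Kng2 (0.999). Gys1 ran with Kcmf1 and G0s2, Gbe1 with Bcat2 and Echdc3, and Pygm with Sh3bgr and Jph2, with r of at least 0.999. The r was 0.997 and 0.996 for Pygb with Skic8 and Tob1, 0.998 and 0.995 for Ppp1r3c with Napepld and Vdac3, 0.994 for Ugp2 with Klf9 and Tmem65, and 0.991 for Gys2 with Fcf1 and Mtm1.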

How the data were processed

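RNA sequencing of 6 libraries was analysed, 3 ADISSP and 3 Control. Per the labels, total RNA was taken with TRIzol and depleted of ribosomal RNA (KAPA RNA HyperPrep with RiboErase). The deposited counts per gene are whole and unnormalised. The submitters' processing notes name STAR, featureCounts and mm39 (GRCm39); roles, versions, annotation release and strand setting were not given there. The authors' TPM and FPKM tables are scaled per length, per the file headers; TPM were used for levels, shares and alternatives, FPKM only for a check of shares. All columns were mapped to libraries by header.

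Counts were tested in R 4.3.3 with edgeR 4.0.16 (filterByExpr by group, TMM, robust quasi-likelihood, no covariate), ADISSP minus Control, with Benjamini-Hochberg adjustment over all genes and a threshold of 0.05. The SE is the log2 fold change divided by the square root of F. Alternatives used DESeq2 1.42.0, limma 3.58.1 on log2(TPM + 1) and log2(TPM + 0.1), other scalings, no filter, each library left out, and a replicate block. Shares were compared by exact two-sided permutation. Precision at low counts is limited by depth: 3 counts are 0.213 to 0.331 CPM in ADISSP and 0.165 to 0.205 CPM in Control. Named genes are the 9 members, the called genes of a pathway list, some of its genes without a call (Gyg, Gaa, Ppp1r3a, Phka1 and Phkg1, picked with their values in view, and G6pc and Ppp1r3g, not tested; some other genes of the list are counted but not reported here by name), the 3 most abundant muscle markers and the 2 genes most alike each member with a mean of at least 1 CPM. Members and lists were chosen with earlier results of these data known. P-values of the fits set a group difference against the spread between these libraries within a group. Against Control 3 alone, that spread comes from the ADISSP libraries only.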

Additional observations from a re-analysis of the deposited data

How the results depend on the processing

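Gys1, Gbe1, Pygl and Ppp1r3b kept their direction and call in all 14 alternatives (log2 fold change 0.83 to 1.63 for Gys1, 0.92 to 1.61 for Gbe1, 1.61 to 2.28 for Pygl, 2.33 to 3.10 for Ppp1r3b). For what changed, the cause was not tested, except that leaving out a library also leaves fewer samples. On library totals, 1759 genes were higher and 6577 lower over all genes, 4 members were higher, and 4 pathway genes were higher and 6 lower. With limma on log2(TPM + 1), log2(TPM + 0.1) and log2(TPM + 1) without a filter, genes higher were 1276, 1267 and 1300, genes lower 9523, 9374 and 9620, members 4 higher and 1 lower each, and pathway genes 4 higher each and 7, 7 and 8 lower. Leaving out 1 library gave 2260 to 4305 genes higher and 1563 to 4212 lower, 5 to 9 members higher and 0 lower, and 5 to 19 pathway genes higher and 0 to 2 lower. Against Control 3 alone, 1 member was lower and leaving out 1 ADISSP library gave 0 to 1; with all controls it was 0.

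Directions that turned were these. On the 3 TPM settings Ugp2 was -0.014 each, Pygb -0.21 each, Gyg -0.32, -0.33 and -0.32, Gaa -0.21 each, Ppp1r3a 1.29, 2.41 and 1.29, Ppp1ca -0.12 each, Phka1 -0.22 each, and Phka2 -0.17 each. On library totals Pygm was -0.0040, Gyg -0.092 and Phka1 -0.23. With both library totals and Control 3 as the only control, Ugp2 was -0.017 and Pygb -0.010. Leaving out 1 library, Pygm ran from -0.33 to 5.21, Ppp1r3a from -0.70 to 5.80 and Phka1 from -0.24 to 0.99. Against Control 3, Pygm was -1.31, and 0.25 with all controls. For the shares (percentage points, ADISSP minus Control), Control 3 alone gave 7.91 for Pygb, 30.2 for Pygl, -38.1 for Pygm and -3.75 for Gys2, and leaving out Control 1 or 2 gave -1.24 or -0.45 for Pygm, and leaving out Control 3 gave 36.4. The log2 ratio of synthase to phosphorylase differed by 0.00020 on CPM, 1.27 with Control 3 alone, and -0.68 to 0.34 without 1 library.

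Libraries with the same number correlated in their deviations from the group means at 0.0348, 0.0804 and 0.0503 for numbers 1, 2 and 3, so the numbers were not taken as pairs, although each library correlated best with its own number. With the replicate block, 7 members were higher and 0 lower, 2947 genes were higher and 2594 lower, Stbd1 lost its call (adjusted p = 0.0637) and Ppp1r3a was 2.63. Depth limits Nhlrc1 and the untested genes, which have few counts.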
